A study of Homo sapiens with 12 samples.

Results

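RNA of ARID1B was followed across every annotated transcript of the gene that the quantification files hold, 35 of the 177456 transcripts in each file, and summed over the gene. The libraries came from HepG2, a human liver tumour cell line. All 12 were made from polyadenylated RNA of cells that received the DMSO vehicle or sorafenib, a drug against liver cancer that blocks RAF and receptor tyrosine kinases, at 5 µM for 48 h. Wild-type (WT) cells with DMSO, WT cells with sorafenib, ARID1B-KO cells with DMSO and ARID1B-KO cells with sorafenib had 3 libraries each, described as biological replicates. ARID1B-KO cells were made with CRISPR/Cas9. The guide, the edited site, the alleles and whether the cells are a clone or a pool are not given in the sources used here. The question was how much ARID1B RNA was left in the knockout, and in which transcript models.

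ARID1B encodes a large DNA-binding subunit of the BAF (SWI/SNF) chromatin remodelling complexes, which use ATP to move nucleosomes. It occupies the same place in the complex as its paralog ARID1A, so that a canonical BAF complex holds one or the other, and cells that lose ARID1A often depend on ARID1B. Small insertions or deletions made by Cas9 can shift the reading frame. They need not remove the RNA, although an early stop codon can mark a message for nonsense-mediated decay.

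The gene (ENSG00000049618.25) lies on chromosome 6, from 156776020 to 157210779 on the plus strand of GRCh38, and its reference model, ARID1B-220, has 20 exons. Of the 35 models, 19 are annotated as protein coding and 14 as retained intron, and 1 each as a nonsense-mediated decay target and as a model without a defined coding sequence. Depth was 19739582 to 29398257 estimated counts per library. Read pairs that fit several models are divided among them by Salmon, so the gene total is firmer than its division among transcripts.

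A few stretches of sequence set apart the models that carry most of the reads or the finding below. They are shown 5′ to 3′ from the GRCh38 plus strand as spliced in the annotation. The first is the 39-base exon found only in ARID1B-202 (chr6:156871614-156871652), in capitals, between the ends of its neighbouring exons.
ARID1B-202: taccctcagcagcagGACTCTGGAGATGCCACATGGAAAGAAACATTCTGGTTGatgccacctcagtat
The second is exon 11 (chr6:157174847-157175005), in capitals, which overlaps 11 of the models and which ARID1B-202 skips.
exon 11: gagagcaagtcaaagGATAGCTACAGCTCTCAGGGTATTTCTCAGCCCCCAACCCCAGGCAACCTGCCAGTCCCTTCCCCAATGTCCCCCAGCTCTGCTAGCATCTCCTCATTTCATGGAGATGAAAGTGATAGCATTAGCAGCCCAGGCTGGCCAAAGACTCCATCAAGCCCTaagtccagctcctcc
The join made by skipping it, with the first bases of exon 12 in capitals, is shared by 5 models.
exon 10 to 12: gagagcaagtcaaagAAGTCCAGCTCCTCC
ARID1B-211 lies wholly within the last exon and removes 983 bases of it. The bases after its junction are in capitals, and the junction is in no other model.
ARID1B-211: tgctacattagttagGAATATGGTTCCATT
ARID1B-215 begins 302 bases inside the intron before exon 17 and reads into that exon, which is in capitals (chr6:157198751-157198830).
ARID1B-215: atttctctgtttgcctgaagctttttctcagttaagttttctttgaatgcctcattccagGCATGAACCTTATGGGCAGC

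At the level of the gene, ARID1B RNA fell in ARID1B-KO under both treatments but was present in every knockout library. WT libraries with DMSO had 1707, 1323 and 1780 estimated counts, and those with sorafenib had 1882, 1444 and 1489. Knockout libraries had 555, 623 and 573 counts with DMSO, and 846, 564 and 537 with sorafenib. In CPM (counts relative to edgeR's TMM-scaled library size), ARID1B-KO stood at 43.8% of WT in DMSO, 27.3 ± 0.81 against 62.4 ± 4.2 CPM, and at 44.2% in sorafenib, 29.3 ± 5.4 against 66.3 ± 3.5 CPM (SD, n = 3). No knockout library reached the level of any WT library.

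By edgeR's quasi-likelihood test, adjusted by Benjamini-Hochberg over 12821 genes, the log2 fold change was -1.19 ± 0.11 (SE) with DMSO (adjusted p = 7.44e-06). With sorafenib it was -1.18 ± 0.11 (adjusted p = 8.89e-06). Of all genes tested, 27.8% were called at an adjusted p under 0.05 in DMSO and 27.0% in sorafenib. Lower calls were 13.5% and 13.8% of genes, and 4.69% and 3.87% of genes had a log2 fold change below that of ARID1B. Because these are bulk libraries, fewer cells that make the RNA and less RNA per cell cannot be told apart. If the cells are a pool, edited and unedited cells are averaged.

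The response of the gene total to sorafenib did not pass the test in either genotype. The log2 fold change with the drug was 0.09 ± 0.11 in WT (edgeR adjusted p = 0.566, where 35.4% of genes were called) and 0.10 ± 0.11 in ARID1B-KO (adjusted p = 0.484, where 46.7% were called). The genotype by sorafenib interaction, the response in ARID1B-KO minus that in WT, was 0.02 ± 0.16 with a 95% interval of -0.29 to 0.32 (adjusted p = 0.977, 0.835% of genes called). In ARID1B-KO the sign of the drug effect rested on the first sorafenib library, which had the highest knockout level at 35.6 CPM against 25.9 and 26.5 CPM. Without it the log2 fold change was -0.046.

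In TPM, which divides each transcript's counts by its effective length and scales each library to the same total, the remaining level was a larger part of WT. The WT libraries held 18.2, 15.3 and 17.6 TPM with DMSO and 18.1, 17.3 and 17.7 TPM with sorafenib. The ARID1B-KO libraries held 8.66, 12.8 and 9.80 TPM with DMSO and 9.19, 9.36 and 9.50 TPM with sorafenib, all below every WT library. The means were 61.1% of WT in DMSO and 52.8% in sorafenib.

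The second ARID1B-KO library with DMSO stood apart on this scale. Of its 12.8 TPM, 3.85 TPM came from ARID1B-207, a 318-base retained-intron model across exons 10 to 12 with 6.1 estimated counts there, 0 in every other library and an effective length of 68 bases. Without ARID1B-207 the library held 8.94 TPM and the ARID1B-KO mean with DMSO was 53.5% of WT, and limma on log2(TPM + 0.1) gave -0.89 ± 0.11 (adjusted p = 0.000251) in place of -0.72 (adjusted p = 0.00577). An edgeR fit with an offset for effective length gave -0.79 in DMSO and -0.92 in sorafenib.

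**Figure D1:**
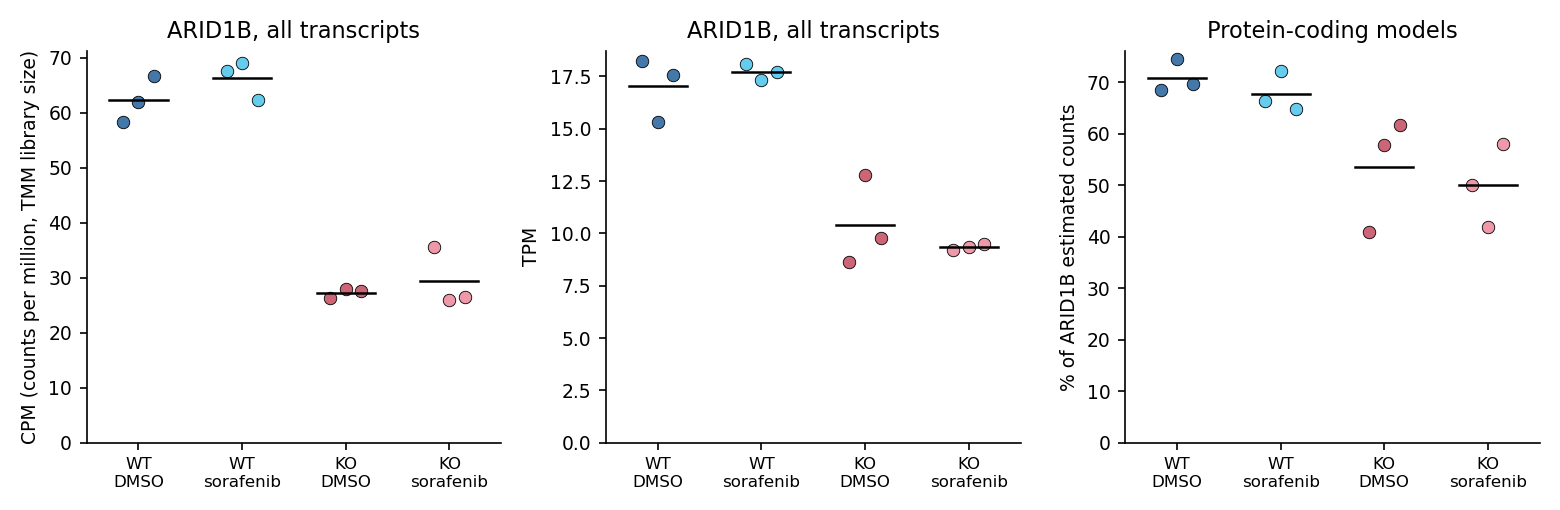
ARID1B in each library (points) with the group mean (lines), as CPM, as TPM and as the percent of its estimated counts assigned to protein-coding models. On the first 2 scales all ARID1B-KO points lie below all WT points, at means of 27.3 and 29.3 against 62.4 and 66.3 CPM, and the high TPM point with DMSO is the library with ARID1B-207.

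Few of the 35 models carried the reads. Counts were 0 in every library for 6 models, among them the reference model ARID1B-220, and 15 others stayed under 20 counts in every library. The 7 models with at least 5% of ARID1B counts in a group (ARID1B-202, ARID1B-205, ARID1B-211, ARID1B-215, ARID1B-221, ARID1B-223 and ARID1B-232) held 87.3% and 89.0% of the counts in WT with DMSO and sorafenib, and 84.2% and 91.4% in ARID1B-KO. The transcript filter left 12 of the 35 models for testing, and these held 94.5% to 96.7% of the counts in the group means. The versions of ARID1B-203, ARID1B-205, ARID1B-220 and ARID1B-223 in the files differ from those of the annotation, so the extent of these 4 models in the quantification is uncertain.

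Of the abundant models, the 3′ models ARID1B-215 and ARID1B-211 had a larger part of their WT level left than the longer ARID1B-205 and ARID1B-232. ARID1B-215, the retained-intron model from intron 16 to exon 20 (3848 bases), stood at 11.2, 13.4 and 15.4 CPM in WT with DMSO and at 10.1, 7.65 and 8.33 CPM in ARID1B-KO with DMSO. With sorafenib it stood at 15.7, 15.5 and 20.3 CPM in WT and at 9.26, 12.9 and 9.22 CPM in ARID1B-KO. Under both treatments all knockout libraries were below all WT libraries, but by less than for the whole gene. Neither difference passed edgeR's test, with log2 fold changes of -0.54 ± 0.21 for DMSO (adjusted p = 0.234) and -0.69 ± 0.21 for sorafenib (adjusted p = 0.129). Its part of the ARID1B counts was 21.3% and 26.1% in WT with DMSO and sorafenib, and 32.0% and 36.8% in ARID1B-KO.

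ARID1B-211, the short protein-coding model within exon 20 (1551 bases), fell in DMSO and was the single ARID1B transcript called. It stood at 12.9, 8.70 and 8.48 CPM in WT with DMSO and at 4.60, 4.85 and 5.18 CPM in ARID1B-KO with DMSO, a difference of -0.97 ± 0.21 on the log2 scale (adjusted p = 0.0400, edgeR). Over all transcripts tested, 2.79% were called. With sorafenib its values were 9.58, 8.59 and 9.18 CPM in WT and 5.25, 4.97 and 5.91 CPM in ARID1B-KO, at -0.73 ± 0.21 (adjusted p = 0.109). The groups did not overlap under either treatment. The call in DMSO was lost with no filter on low counts and when any library other than the second ARID1B-KO sorafenib library was left out. DESeq2 called it under both treatments (adjusted p = 0.000294 and 0.0106). On the TPM scale this model was the largest part of the gene, at 7.25 to 10.5 TPM in the WT libraries and 3.797 to 5.29 TPM in the knockout libraries.

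The estimates for ARID1B-205 and ARID1B-232 were a smaller part of WT, with wide errors and no call. ARID1B-205, a protein-coding model that the annotation runs from exon 1 to exon 20, stood at 9.77, 20.8 and 18.9 CPM in WT with DMSO and at 2.10, 2.44 and 4.71 CPM in ARID1B-KO. With sorafenib the values were 20.2, 14.4 and 12.6 CPM in WT and 3.23, 0 and 3.07 CPM in ARID1B-KO. All knockout libraries lay below all WT libraries, yet neither log2 fold change passed edgeR's test, at -2.34 ± 1.11 for DMSO (adjusted p = 0.350) and -2.88 ± 1.14 for sorafenib (adjusted p = 0.254). ARID1B-232, a protein-coding model with a later start (5913 bases), stood at 9.43, 10.6 and 4.99 CPM in WT with DMSO and at 0, 3.52 and 1.30 CPM in ARID1B-KO. With sorafenib it stood at 8.78, 16.5 and 7.76 CPM in WT and 4.34, 2.50 and 0 CPM in ARID1B-KO, again without overlap, at -2.33 ± 1.58 and -2.24 ± 1.57 (adjusted p = 0.549 and 0.561).

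ARID1B-202, the longest model (10813 bases), has the 39-base exon and skips exon 11 as shown above. Its estimate in ARID1B-KO was higher than in WT with DMSO and lower with sorafenib, and edgeR called neither difference. In DMSO it held 1.85, 2.15 and 1.502 CPM in WT and 2.05, 3.52 and 2.88 CPM in ARID1B-KO, overlapping ranges that differed by 0.68 ± 0.34 on the log2 scale (adjusted p = 0.377, edgeR). With sorafenib the WT libraries held 4.49, 5.84 and 3.44 CPM, above the 2.73, 1.90 and 2.31 CPM of the knockout (-0.95 ± 0.34, edgeR adjusted p = 0.207).

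The drug response of ARID1B-202 was 1.34 ± 0.35 in WT (edgeR adjusted p = 0.0773, with 3.25% of transcripts called) and -0.29 ± 0.34 in ARID1B-KO (adjusted p = 0.797). The interaction was -1.63 ± 0.48 (adjusted p = 0.502, with 0.0699% of transcripts called). DESeq2 put both the WT response (1.36, adjusted p = 0.000607) and the interaction (-1.65, adjusted p = 0.0181) past the threshold, so the call depends on the tool. The counts behind these values were 40.1 to 125 in WT and 41.5 to 78.5 in ARID1B-KO. Its effective length, 15854 to 22168 bases, was 1.47 to 2.05 times its length, so that a read in this model counted for less TPM than its length alone gives.

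The other 2 models with at least 5% of the counts in a group showed no ordering by genotype. ARID1B-221, a retained-intron model of the last exons, ranged from 0.390 to 3.17 CPM in WT and from 0.783 to 6.19 CPM in ARID1B-KO, and ARID1B-223 from 0.160 to 3.37 CPM in WT and from 0 to 3.55 CPM in ARID1B-KO. The highest values of the pair, 6.19 and 3.55 CPM, were each in 1 knockout library with sorafenib. In 6 models the estimate went from 0 in a library to at least 20 counts in another of the same group. ARID1B-230, with 207.4 counts in the third WT library with DMSO and 0 in the others of that group, had the widest such gap. Such switches between libraries of a group are part of the spread that the transcript tests use, and edgeR's common biological variation between replicates, as a coefficient, came to 0.954 over transcripts against 0.152 over genes.

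**Figure D2:**
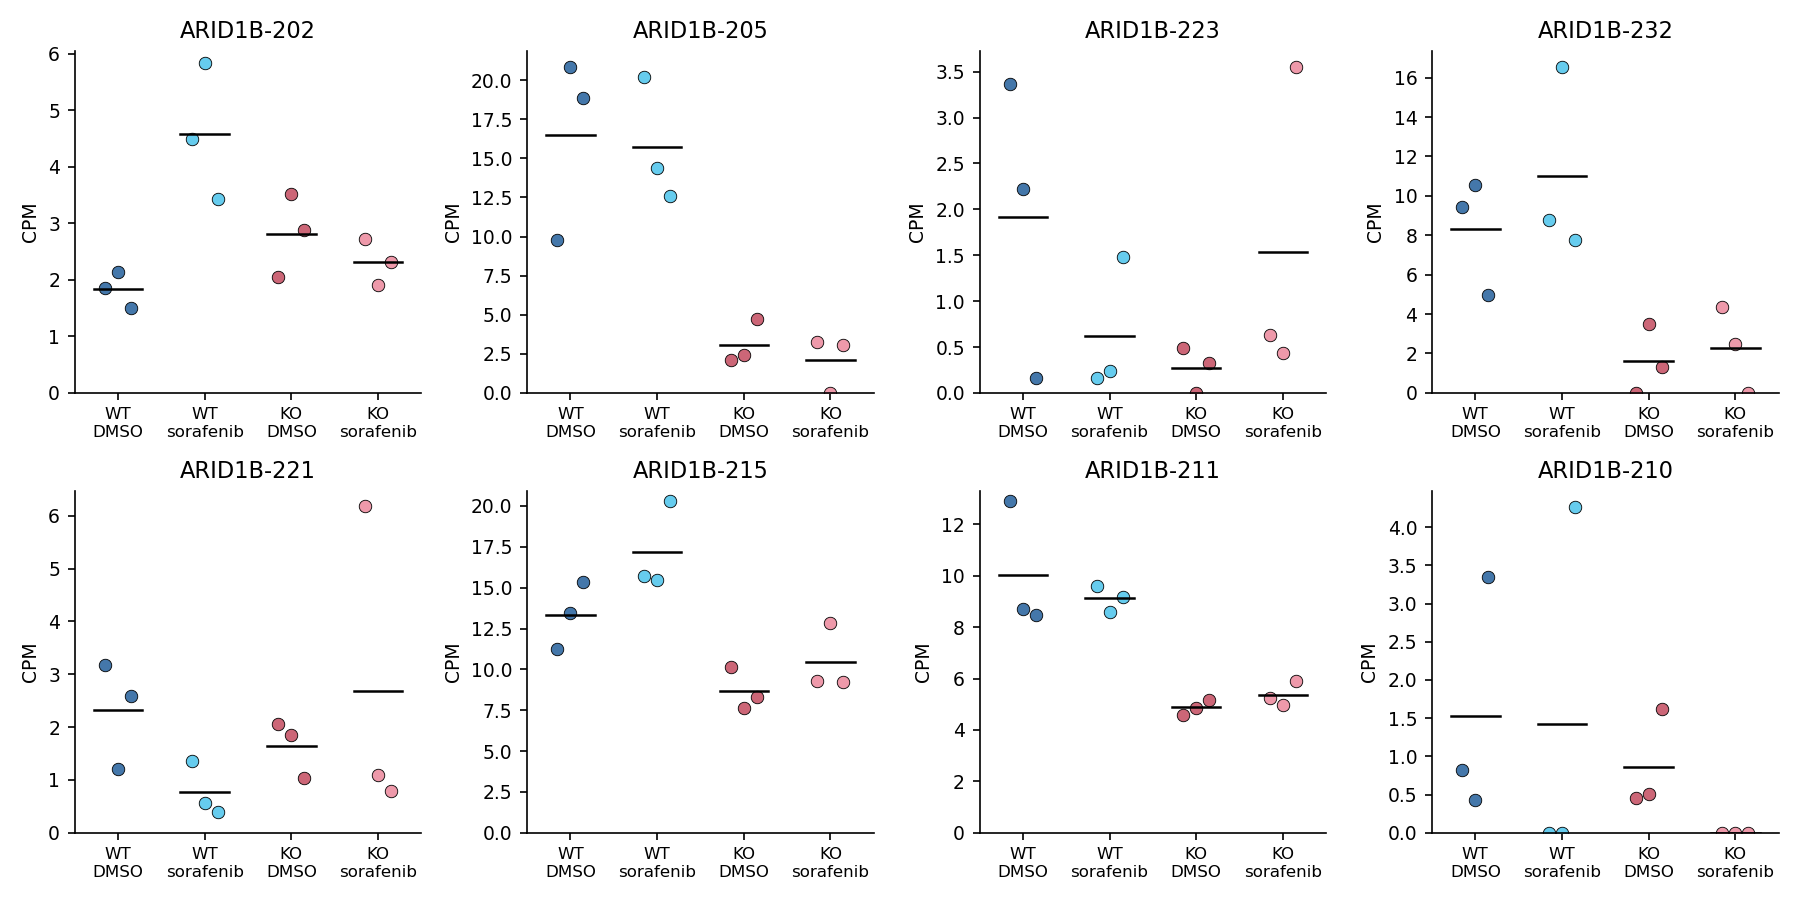
CPM of 8 ARID1B models in each library (points, with the group mean as a line): the 7 with at least 5% of the counts in a group, and ARID1B-210. ARID1B-205, ARID1B-211, ARID1B-215 and ARID1B-232 separate the genotypes under both treatments, whereas ARID1B-202, ARID1B-221 and ARID1B-223 do not, and ARID1B-210 is at 0 in all ARID1B-KO libraries with sorafenib and in 2 of the WT libraries with sorafenib.

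Over the 12 models tested, 10 had a lower estimate in ARID1B-KO and 2 a higher estimate in DMSO, and 9 and 3 in sorafenib. In sorafenib edgeR called 0 of the 12 (2.6% of all transcripts were called) while 5 had an unadjusted p under 0.05, and DESeq2 called 4. These were ARID1B-202, ARID1B-210, ARID1B-211 and ARID1B-215. ARID1B-210 held counts in only 1 library of this contrast, a WT library with 101.9. For DESeq2 calls and for counts of unadjusted p-values, in this and the other contrasts, the share over all transcripts was not computed. The p-values of single transcripts hold the error of dividing reads among models only as far as it shows as spread between libraries. In ARID1B-KO, sorafenib gave 0 calls by edgeR (5.97% of all transcripts), 1 unadjusted p under 0.05 and 1 call by DESeq2, both for ARID1B-210. This model was at 0 with sorafenib and at 0.458, 0.507 and 1.61 CPM with DMSO.

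The models were then grouped by the exons they span in the annotation, a division made after the values had been seen, which therefore carries no test. The 6 models confined to the 3′ part of the gene and reaching exon 20 stood at 31.0, 23.7 and 27.4 CPM in WT with DMSO and at 19.5, 15.9 and 14.95 CPM in ARID1B-KO. With sorafenib they stood at 30.7, 26.7 and 30.5 CPM in WT and at 22.2, 19.3 and 16.3 CPM in ARID1B-KO. Their knockout means were 61.3% and 65.9% of WT. The 5 models annotated from exon 1 to exon 20 stood at 14.99, 25.2 and 20.5 CPM in WT with DMSO and at 4.64, 5.97 and 7.92 CPM in ARID1B-KO, 30.5% of WT. With sorafenib they stood at 24.9, 20.4 and 17.5 CPM in WT and at 6.59, 2.34 and 8.94 CPM in ARID1B-KO, 28.4% of WT. In both of these classes the genotypes did not overlap. Of the 5 models of the second class, only ARID1B-202 has the version of the annotation, and its estimate in DMSO was higher in ARID1B-KO (0.68 ± 0.34, not called). The lower class total in DMSO therefore came from ARID1B-205 and ARID1B-223, whose extent in the files is uncertain.

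The 5 models that start later and run to exon 20 went from 10.3, 10.99 and 16.2 to 0.755, 4.34 and 2.92 CPM with DMSO and from 8.78, 16.7 and 12.2 to 4.34, 2.63 and 0 CPM with sorafenib, to 21.4% and 18.5% of WT. The 19 models that do not reach exon 20 held 1.24 to 5.24 CPM in any library. The 3′ models thereby made up 44.2% and 44.3% of ARID1B counts in WT and 61.6% and 66.3% in ARID1B-KO. Models from exon 1 to exon 20 made up 32.4% and 31.5% of the counts in WT and 22.6% and 20.4% in ARID1B-KO. As shares of TPM, the 3′ models were at 70.0% and 67.7% in WT and at 69.7% and 78.6% in ARID1B-KO. On that scale the genotypes overlapped with DMSO, where the second ARID1B-KO library, at 53.7%, includes ARID1B-207. With sorafenib they did not overlap.

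**Figure D3:**
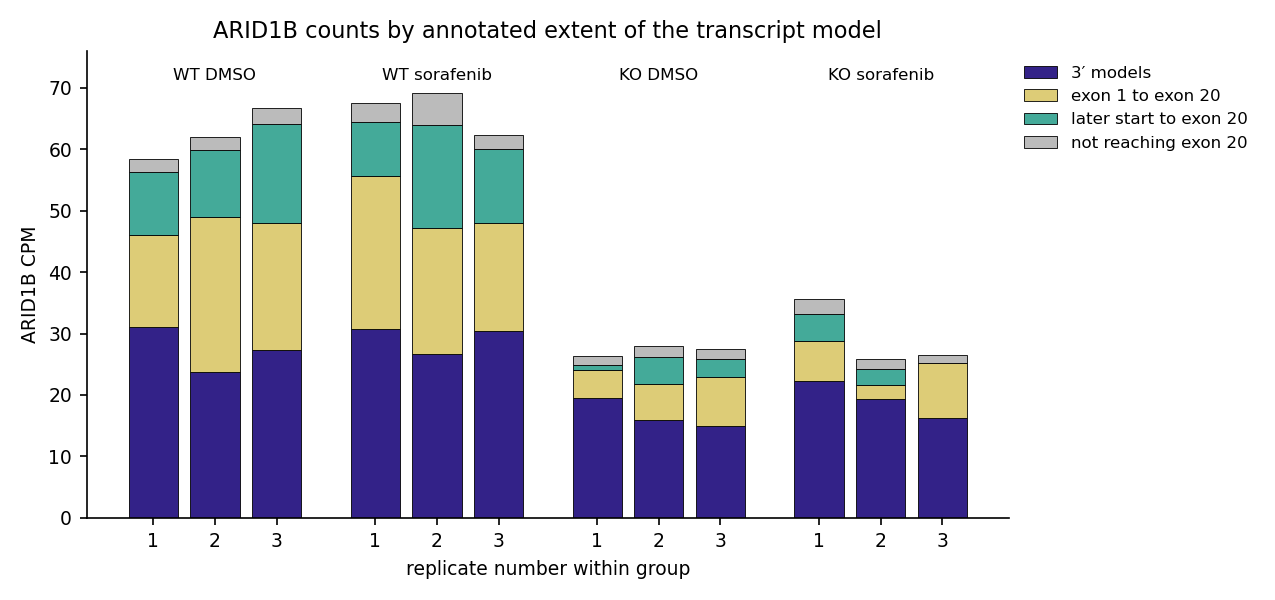
ARID1B CPM in each library, stacked by the annotated extent of the transcript model. The segment of 3′ models is the largest in every library of both genotypes except the second WT library with DMSO (23.7 against 25.2 CPM from exon 1). In ARID1B-KO the segments of models from exon 1 and of models with a later start are at 30.5% and 21.4% of WT with DMSO.

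The share of ARID1B counts in protein-coding models was lower in ARID1B-KO. With DMSO it was 68.5%, 74.4% and 69.6% in WT against 40.8%, 57.8% and 61.7% in ARID1B-KO. With sorafenib it was 66.2%, 72.0% and 64.8% in WT against 50.0%, 41.9% and 58.1% in ARID1B-KO. Each of the 6 knockout libraries was below each of the 6 WT libraries. The difference of the genotype means was -17.5 percentage points (two-sided exact permutation test within treatment, p = 0.005, the smallest that its 400 arrangements allow, and 0.01 adjusted over 2 such tests). With the shares taken in TPM the difference was -13.4 points (exact permutation p = 0.01). On that scale the genotypes overlapped with sorafenib, at 69.1% in the third ARID1B-KO library against 68.6% in the first WT library. The second ARID1B-KO library with DMSO was at 48.3% with the retained-intron model ARID1B-207 counted. The difference without that model was not computed. The mean effective length of ARID1B RNA, weighted by counts, was 5874 ± 616 and 6105 ± 546 bases in WT with DMSO and sorafenib and 5752 ± 376 and 5126 ± 555 bases in ARID1B-KO (SD, n = 3). This difference of -551 bases did not pass the same exact permutation test (p = 0.145, also 0.145 adjusted over the 2 tests). The effective length of a single model also differed between groups, so the mean does not reflect the mix of models alone. With DMSO and sorafenib, ARID1B-202 was at 1.83 and 1.83 times its length in WT and 1.67 and 1.60 in ARID1B-KO. ARID1B-211 went the other way, at 0.646 and 0.613 in WT and 0.685 and 0.659 in ARID1B-KO.

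A test of transcript usage, which asks whether a model moved differently from the rest of its gene, called no ARID1B model. The edgeR diffSpliceDGE test gave 0 calls in either genotype contrast, where 1.11% of transcripts were called in DMSO and 1.71% in sorafenib, and 1 and 4 of the 12 models had an unadjusted p under 0.05. For the gene as a whole the Simes adjusted p was 0.715 in DMSO and 0.120 in sorafenib (4.09% and 6.41% of genes called). ARID1B-210 in sorafenib came closest (adjusted p = 0.0582), but only 1 library of that contrast, a WT library, held counts of it (101.9). A differing drop of the long and the 3′ models was therefore not established model by model.

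Along the gene, the TPM of all models overlapping each exon of the reference model were summed. At exon 1 the sum was 2.13, 2.73 and 2.37 TPM in WT with DMSO and 0.643, 0.654 and 0.985 TPM in ARID1B-KO, 31.6% of WT. At exon 8, which had the lowest remaining part in DMSO, it was 2.93, 4.06 and 4.30 TPM in WT and 0.493, 1.11 and 1.44 TPM in ARID1B-KO, 27.0% of WT. At exon 20 it was 16.8, 14.1 and 15.6 TPM in WT and 7.40, 7.92 and 8.69 TPM in ARID1B-KO, 51.6% of WT. Both genotypes had their highest sums at the last exon. With all models, the knockout's part of WT was larger there than at exon 1.

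In sorafenib the knockout's part of WT went from 23.7% at exon 5 to 53.4% at exon 20, and the genotypes did not overlap at any of the 20 exons. In DMSO they did not overlap at 17 of the 20. The other 3, exons 10 to 12, stood at 61.8% to 72.0% of WT because the second knockout library held ARID1B-207 there. With ARID1B-207 left out, exon 11 was at 34.9%, every exon from the first to the 16th lay between 27.0% and 38.2%, the last 4 between 50.2% and 51.6%, and no exon overlapped. That order of the ends turned when the sum was restricted to models whose version equals that of the annotation, also without ARID1B-207. Exon 1 was then at 79.9% of WT in DMSO and 92.2% in sorafenib, with overlapping genotypes, against 56.0% and 56.8% at exon 20, without overlap. Exon 8 was at 33.5% and 27.3%, and the genotypes did not overlap at 16 exons in DMSO and 12 in sorafenib. The low value at exon 1 therefore rests on ARID1B-205 and ARID1B-223, whose structure in the files is uncertain. This does not hold for every early exon. In sorafenib exon 5 had the lowest part of WT in the restricted sum too, at 21.3% against 23.7% with all models. With ARID1B-207 kept in this restricted sum, exon 11 in DMSO was at 140%, and 13 exons did not overlap. The sums are model assignments that share reads, not read coverage, and no drop at a single exon was read from them.

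**Figure D4:**
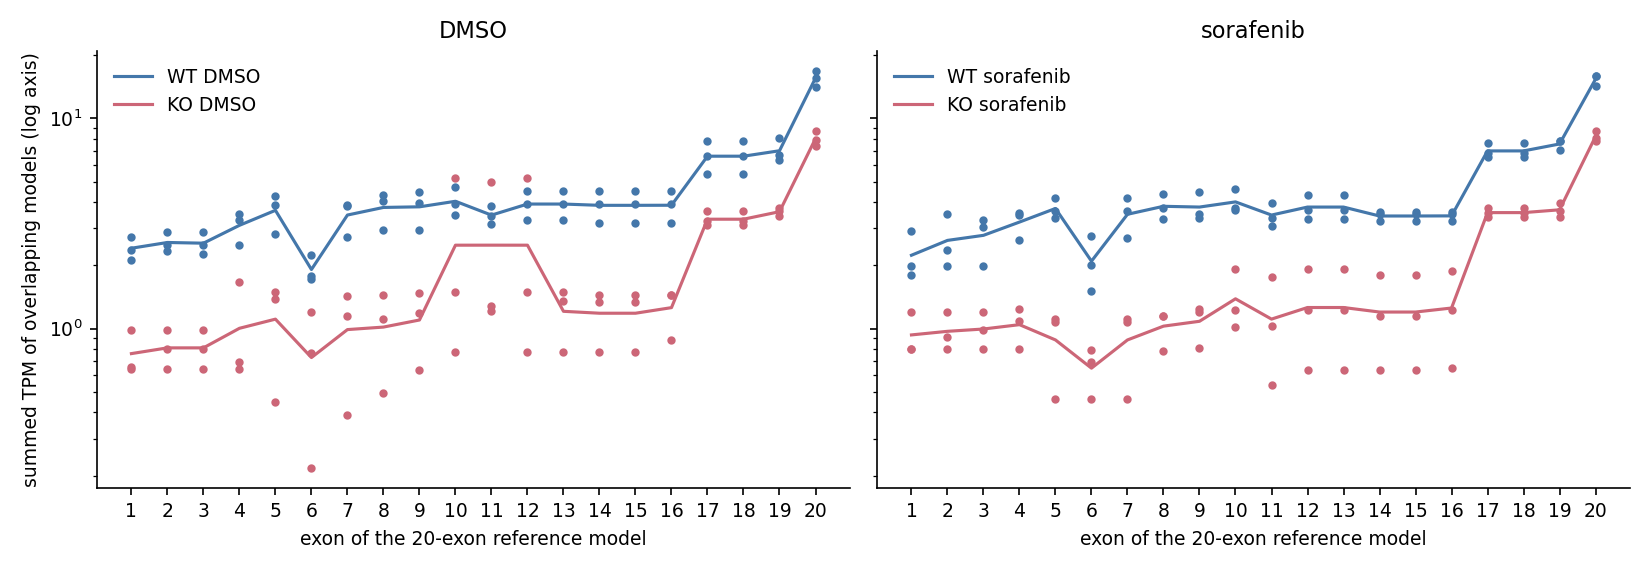
Summed TPM (log axis) of the ARID1B models that overlap each of the 20 exons of the reference model, with libraries as points and group means as lines. The ARID1B-KO means lie below the WT means along the gene, at 50.2% to 51.6% of WT at exons 17 to 20 with DMSO, and the raised knockout mean at exons 10 to 12 with DMSO comes from 1 library.

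ARID1B made up a smaller part of the paralog pair in the knockout. ARID1A, the alternative subunit, had mean levels of 9.95 and 9.58 TPM in WT with DMSO and sorafenib and 10.9 and 9.92 TPM in ARID1B-KO. Between genotypes it differed by 0.13 ± 0.11 on the log2 scale with DMSO (adjusted p = 0.387, edgeR) and by -0.12 ± 0.11 with sorafenib (adjusted p = 0.447). ARID1B made up 58.9% to 71.9% of the summed TPM of the pair in the WT libraries and 46.2% to 51.9% in the knockout libraries. The second ARID1B-KO DMSO library, at 49.9%, includes ARID1B-207, and its share without that model was not computed. Which paralog was larger in WT depended on the scale. By mean CPM, ARID1A exceeded ARID1B in WT under DMSO (75.3 against 62.4) and under sorafenib (86.3 against 66.3). The gap was wider in ARID1B-KO (82.5 against 27.3, and 79.4 against 29.3). ARID2, the ARID subunit of the PBAF complex, had log2 fold changes between genotypes of 0.14 ± 0.09 for DMSO and 0.22 ± 0.10 for sorafenib (edgeR adjusted p = 0.285 and 0.106). Its value in sorafenib depended on the processing, at 0.22 to 0.45 over the alternatives.

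Of 30 BAF, PBAF and non-canonical BAF subunit genes other than ARID1B, 27 were tested. In DMSO 4 rose and 2 fell, 22.2% of those tested against 27.8% of all genes, with a median log2 fold change of 0.13 against 0.01 over all genes. In sorafenib 3 rose and 4 fell, 25.9% against 27.0%, with medians of -0.01 and -0.00. SMARCA2, which encodes the ATPase BRM, fell under both treatments. It stood at 28.9, 33.6 and 35.2 TPM in WT with DMSO and 9.60, 11.8 and 9.17 TPM in ARID1B-KO, and at 31.3, 32.6 and 42.1 TPM and 14.2, 17.3 and 14.05 TPM with sorafenib. The log2 fold changes were -1.31 ± 0.10 (edgeR adjusted p = 1.24e-06) and -1.18 ± 0.10 (adjusted p = 2.84e-06). This fall was close in size to that of ARID1B and without overlap, whereas the paralogous ATPase SMARCA4 was at 0.17 ± 0.09 and -0.14 ± 0.09 (adjusted p = 0.177 and 0.305).

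Among the core scaffold genes, SMARCC2 fell in both treatments (-0.71 ± 0.10 and -0.51 ± 0.10, edgeR adjusted p = 0.000261 and 0.00247) and SMARCC1 in sorafenib (-0.44 ± 0.08, adjusted p = 0.00214). Those 3 calls were lost with an offset for effective length, which gave -0.15, -0.03 and -0.40. The accessory gene BCL7A rose in both treatments (0.84 ± 0.11 and 0.41 ± 0.11), as did SS18L1, a paralog of the subunit SS18 (0.48 ± 0.13 and 0.62 ± 0.13). In DMSO alone the calls were BCL7B (0.33 ± 0.09, adjusted p = 0.0208) and SMARCD1 (0.22 ± 0.08, adjusted p = 0.0477). In sorafenib alone they were SMARCD3 (2.03 ± 0.41, adjusted p = 0.00299) and BICRAL, of the non-canonical complex (-0.55 ± 0.12, adjusted p = 0.00436). With the length offset BCL7B (0.22) and SMARCD1 (0.24) in DMSO and BCL7A in sorafenib (0.38) also lost their calls. The call of SMARCD1 was lost in 10 of the 12 fits that left out a library. Calls were also lost for BCL7B in DMSO without the second WT or the first or the third knockout DMSO library (adjusted p = 0.0842, 0.0671 and 0.0752), for SS18L1 in DMSO without the second knockout DMSO library (0.0597), and for BCL7A in sorafenib without the third WT or second knockout sorafenib library (0.0799 and 0.0657). By the genotype by sorafenib interaction none of these genes passed the test for a difference between treatments (edgeR adjusted p from 0.208 for BCL7A to 0.799 for SS18L1).

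Genes near ARID1B on chromosome 6 were examined for a change that extends beyond the gene. Of 19 protein-coding genes within 2 Mb of its ends, 14 were tested. Under each treatment 4 fell and 0 rose, 28.6% of the genes tested, against 13.5% and 13.8% of all genes called lower. The median log2 fold changes were -0.16 in DMSO and -0.23 in sorafenib. The nearest tested gene on the far side of the 3′ end, TMEM242, at 78.2 kb, was at -0.07 ± 0.09 (edgeR adjusted p = 0.619) and 0.18 ± 0.09 (adjusted p = 0.157). On the other side the nearest was TFB1M, a mitochondrial rRNA methyltransferase, at -1461.5 kb from the start of ARID1B, with 0.28 ± 0.11 (adjusted p = 0.0895) and 0.07 ± 0.12 (adjusted p = 0.720). Neither gene passed the test, although an offset for effective length put TMEM242 in DMSO past it (-0.45, adjusted p = 0.0479).

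The neighbours that fell lay farther out. TIAM2, an exchange factor for RAC, fell in both treatments (-1.49 ± 0.20 and -1.15 ± 0.19, edgeR adjusted p = 0.000140 and 0.000853), as did the phosphoinositide phosphatase SYNJ2 (-0.47 ± 0.08 and -0.56 ± 0.08) and TMEM181 (-0.77 ± 0.10 and -0.33 ± 0.10). EZR, which encodes ezrin, fell in DMSO (-1.38 ± 0.42, adjusted p = 0.0340) and TULP4 in sorafenib (-0.46 ± 0.12, adjusted p = 0.0103). With the offset for effective length TIAM2 was no longer called (-0.29 and -0.07), nor were SYNJ2 in DMSO, TULP4 in sorafenib and TMEM181 in sorafenib. The call of EZR was lost without the first or second WT or the second or the third knockout DMSO library (adjusted p = 0.0784, 0.0973, 0.0527 and 0.0779). That of TMEM181 in sorafenib was lost without the first or second WT or the second or the third knockout sorafenib library (0.0629, 0.101, 0.0996 and 0.0768). The tested genes between TMEM242 and SYNJ2, ZDHHC14 and SNX9, were not called in either treatment.

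**Figure D5:**
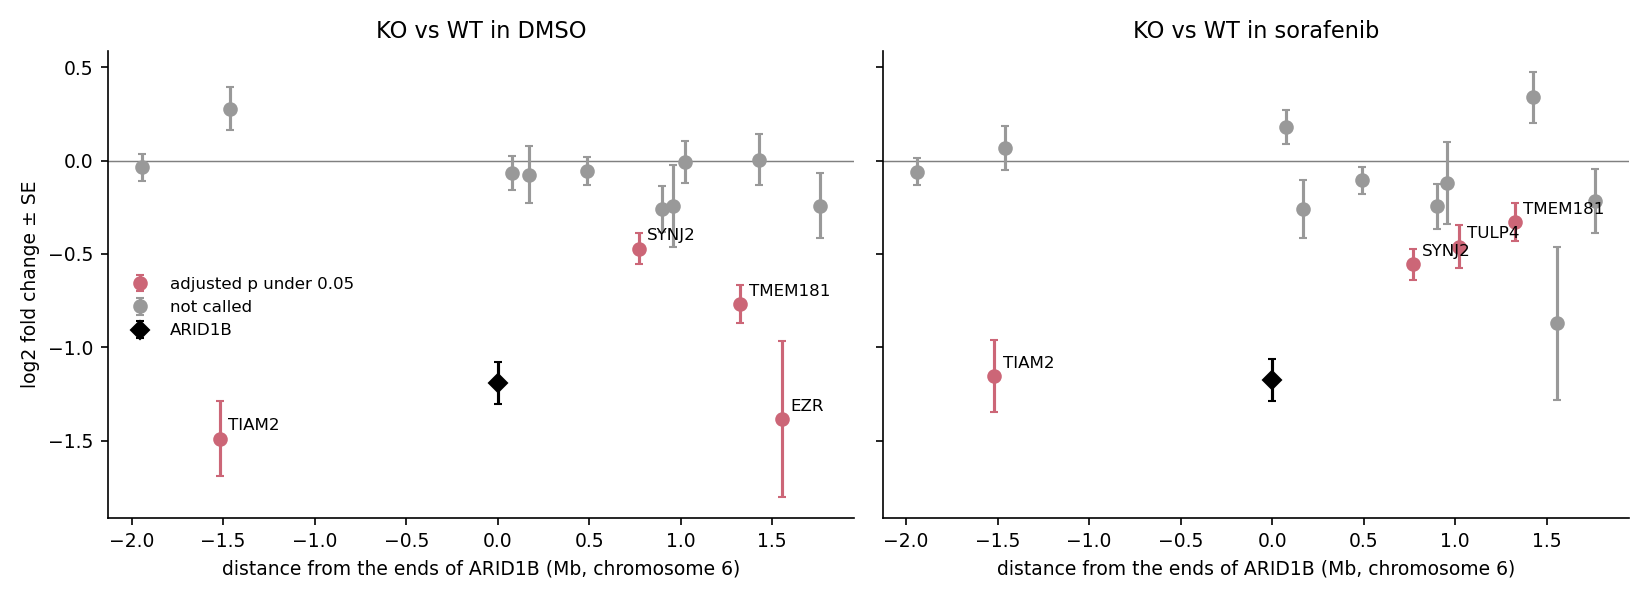
Log2 fold change (± SE) of ARID1B-KO against WT for tested protein-coding genes within 2 Mb of ARID1B, by distance from its ends, with calls in colour and ARID1B as the black diamond at 0. The nearest tested gene, TMEM242 at 78.2 kb, lies near 0 (-0.07 with DMSO and 0.18 with sorafenib), and the genes called lie 771.1 kb or farther away.

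The profile of ARID1B over the 12 libraries was set against the 2016 genes called in both genotype contrasts. By the root mean square difference of centred log2 CPM, the most alike were BOD1L1 (0.14), the zinc finger factor KLF6 (0.14), TMEM164 (0.16), the pyrophosphate transport gene ANKH (0.17) and the carboxypeptidase-like gene CPVL (0.17). Their log2 fold changes in DMSO and sorafenib were -1.18 and -1.32 for BOD1L1, -1.39 and -1.19 for KLF6, -0.96 and -1.10 for TMEM164, -1.09 and -1.25 for ANKH, and -1.56 and -1.08 for CPVL. These genes were ranked by likeness over the same libraries, so the closeness is a description. For sorafenib in ARID1B-KO, where 46.7% of all genes were called, edgeR called KLF6 (0.34, adjusted p = 0.0195) and CPVL (0.37, adjusted p = 0.0357). BOD1L1, TMEM164 and ANKH, like ARID1B, were not called there.

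The cell line label was checked with marker genes. All 10 hepatocyte and HepG2 markers were detected in every library, albumin (ALB) at 30868 to 102010 TPM and alpha-fetoprotein (AFP) at 19248 to 31720 TPM. Of 8 markers of other cell types, PTPRC and DCN were at 0 throughout, and CD68 was the highest at 10.9 to 24.9 TPM. The summed hepatocyte markers moved with genotype and treatment, at 68629 to 75494 TPM in WT with DMSO, 92065 to 94016 TPM in WT with sorafenib, 90516 to 104804 TPM in ARID1B-KO with DMSO and 125650 to 165089 TPM in ARID1B-KO with sorafenib. The summed markers of other cell types were at 11.1 to 26.3 TPM over all libraries. TPM add to a fixed total, so a rise of such abundant genes lowers the TPM of the others, and its part in the ARID1B values was not tested.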

How the data were processed

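Polyadenylated RNA of 12 HepG2 libraries, 3 per group, was sequenced as 75-base read pairs, per the labels. Per the submitters' processing notes the authors used Salmon, with no version given, on GRCh38, and the design text names Ensembl 109. The files give, per transcript, estimated counts, TPM (the authors' scaling to a fixed total) and an effective length, as deposited. Effective lengths exceeded the length for 13.1% to 15.3% of transcripts, a correction that the sources used here do not describe.

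Identifiers were matched to GENCODE release 44 (165533 of 177456, 93.3%). The unmatched held 2.87% to 3.20% of counts and were left out of gene sums. ARID1B-236 and ARID1B-237 of that release were not analysed here. Estimated counts were summed to 35810 genes, rounded, and tested with edgeR 4.0.16 (R 4.3.3; TMM, filterByExpr, robust quasi-likelihood, 4 group means, all libraries), for 12821 genes, and likewise for 50041 transcripts, with a call at a Benjamini-Hochberg adjusted p under 0.05. SE is the log2 fold change over the square root of F. Alternatives used DESeq2 1.42.0 and limma 3.58.1 on log2(TPM + 0.1). The edgeR procedure was also run on simulated counts, drawn without read sharing among models. Its outcome is not used as support here. Replicate numbers did not pair the libraries.

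Named transcripts held at least 5% of ARID1B counts in a group or were called. ARID1B-207, ARID1B-210 and ARID1B-230, the models of the classes, and SMARCA4, ZDHHC14 and SNX9 were named after their values were seen. Named genes were called members of the lists, ARID1A, ARID2, the nearest tested neighbours and the 5 most alike genes. The members and lists were chosen with earlier results of these data known. P-values measure the spread between these samples, described as biological replicates. PCR copies were not separated.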

Additional observations from a re-analysis of the deposited data

How the results depend on the processing

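The falls of ARID1B at the gene level kept their sign and stayed past the threshold in every alternative run, at -1.24 to -0.72 in DMSO (adjusted p from 1.67e-19 to 0.00577) and -1.34 to -0.91 in sorafenib (8.41e-19 to 0.00148). The smallest falls came from limma on TPM. The drug effects were past the threshold in no alternative (adjusted p from 0.348 to 0.832 in WT, 0.236 to 0.969 in ARID1B-KO and 0.652 to 1.0 for the interaction), but signs near 0 turned. Sorafenib in ARID1B-KO was -0.0068 with total counts, -0.14 with limma on TPM, -0.025 with the length offset and -0.046 to 0.19 with a library left out, and the interaction was -0.043, -0.19, -0.13 and -0.14 to 0.10. The number of ARID1B transcripts called in DMSO was 0 with no filter on low counts, 0 with the replicate block and 0 to 1 with a library left out. In sorafenib it was 4 with DESeq2 and 1 with limma on TPM, and DESeq2 called 1 for sorafenib in WT, 1 in ARID1B-KO and 2 for the interaction. Usage in sorafenib gave 0 to 1 calls with a library left out, the 1 without the first WT sorafenib library. The cause of these changes was not tested.

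The share in protein-coding models differed by -17.4 points in DMSO alone and -17.7 in sorafenib alone (exact permutation p = 0.1, the smallest either allows), and by -19.6 to -14.4 with a library left out. The effective length differed by -727 to -399 bases with a library left out and passed the test (exact permutation p = 0.035) without the first WT DMSO library. The length offset left 3 BAF subunits called in DMSO and 1 neighbour in sorafenib. In sorafenib it turned BCL7B to 0.26, ARID1A to 0.045 and TMEM242 to -0.011. With a library left out, genes near 0 changed sign in sorafenib for SMARCD1 (-0.036 to 0.029), BCL7B (-0.10 to 0.053) and TFB1M (-0.054 to 0.15), and in DMSO for TULP4 (-0.12 to 0.069). Libraries with the same replicate number had deviations from their group means correlated at -0.16 to 0.18, and 4 of 12 libraries correlated best with their own number, so the numbers were not taken to pair libraries. With the replicate block ARID1B was at -1.19 in DMSO and -1.18 in sorafenib, the share test gave p = 0.03125 (exact permutation, its smallest), and SMARCD1 and EZR in DMSO lost their calls (adjusted p = 0.0567 and 0.0605).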
